A study of Mus musculus with 6 samples.

Results

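Collagen chain genes were taken as every protein-coding gene of the count table whose symbol is Col, a number, the letter a and a number, which gave 44 of the 54532 genes listed. They were compared between hearts of TG mice and NTG mice after aortic banding (AB), a narrowing of the aorta that loads the left ventricle with pressure, and the comparison asks how the collagen chains differ between banded hearts with and without extra HINT2, a mitochondrial histidine triad protein. TG mice (HINT2CTG-Myh6Cre) carried human HINT2 under the CAG promoter, silenced by a floxed stop cassette until Cre, driven by the cardiomyocyte promoter Myh6, was activated with tamoxifen. NTG mice were C57BL/6J. All mice were males banded at 8 to 10 weeks of age, and left ventricle was collected 4 weeks after AB from 3 mice of each group. The sources used here do not say whether the NTG mice carried Cre or received tamoxifen, so the transgene, Cre and tamoxifen cannot be told apart. Sham-operated hearts were not analysed here, so each value is a level after AB and not a response to it.

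Collagens are trimers of alpha chains wound into a helix, and each chain has its own gene. Fibrillar collagens, mainly types I and III, form the tension-bearing fibres between cardiomyocytes, network collagens such as type IV form the sheet of basement membranes around muscle cells and vessels, and FACIT collagens sit on the surface of fibrils. In the heart, fibroblasts make most fibrillar collagen, type IV comes also from endothelial and muscle cells, and pressure overload is known to increase fibrillar collagen in the myocardium.

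Library totals were 14863568 to 17581220 counts in NTG and 14944465 to 17235802 in TG. Hint2, the mouse copy of the overexpressed gene, had 12, 545 and 559 counts in NTG 1, 2 and 3 and 793, 828 and 859 counts in TG 1, 2 and 3. Whether reads of the human transgene were counted for the mouse gene was not tested. The log2 fold change of Hint2 was 1.33 (edgeR adjusted p = 0.433, DESeq2 adjusted p = 0.575). Without the library labelled NTG 1 it was 0.77 (edgeR adjusted p = 0.0212). The library labelled NTG 1 stood far below every other library for Hint2, and collagen results are therefore given also without it. By a chi-square of counts per gene the library labelled NTG 1 was nearer to the TG libraries (17.8 to 28.1) than to NTG 2 and NTG 3 (71.2 and 33.1). Its Hint2 count, in contrast, was the farthest from those of TG. TG 2 was likewise nearer to the library labelled NTG 1 and to NTG 3 (17.8 and 28.5) than to TG 1 and TG 3 (32 and 36.8). Across the 14774 genes that passed a filter on low counts, the quasi-likelihood test of edgeR called 0 genes (a call needed a Benjamini-Hochberg adjusted p below 0.05 together with a log2 fold change beyond 0.5 either way), with 0.196 as the lowest adjusted p, while DESeq2 called 355 lower and 228 higher in TG. At an unadjusted p under 0.05 edgeR placed 1442 genes lower and 1305 higher. Mitochondrially encoded genes took 13.4% to 19.2% of counts in NTG and 16% to 21.5% in TG. The labels do not say that libraries of a group came from separate mice, which the methods of the study state, and p-values measure only the spread between these libraries. All fold changes below are TG relative to NTG, and values in separate libraries are given in the order of the labelled replicates. Levels are CPM, counts scaled to library size with TMM factors, and the order of levels between genes is given only as RPKM, which also divides by gene length. Sums, shares and ratios of chains are of counts or CPM, in which longer genes weigh more, and are compared between libraries only.

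Collagen chain transcripts were on balance less abundant in TG hearts after AB, most clearly the fibrillar and FACIT chains. Of the 44 chains, 35 passed the filter, and 28 of these had a log2 fold change below 0 (51.3% of all genes tested did). Their median log2 fold change was −0.43, beside −0.0081 over all genes tested. With edgeR 0 of the 35 were called (0% of all genes in either direction). At an unadjusted p under 0.05, 11 of the 35 were lower (9.76% of all genes) and 2 were higher (8.83% of all genes), namely Col6a3 and Col11a2. DESeq2 called 7 of the 35 lower (2.4% of all genes) and 0 higher (1.54%), and limma voom called 0 (0% and 0.00677% of all genes lower and higher). The 7 were Col14a1, Col1a2, Col16a1, Col12a1, Col1a1, Col5a2 and Col8a2. In 10 chains every TG library lay below every NTG library (12.3% of all genes), and in 0 of the tested chains every TG library lay above (11.2%). The plot of fold changes by class shows these values with their errors.

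**Figure D1:**
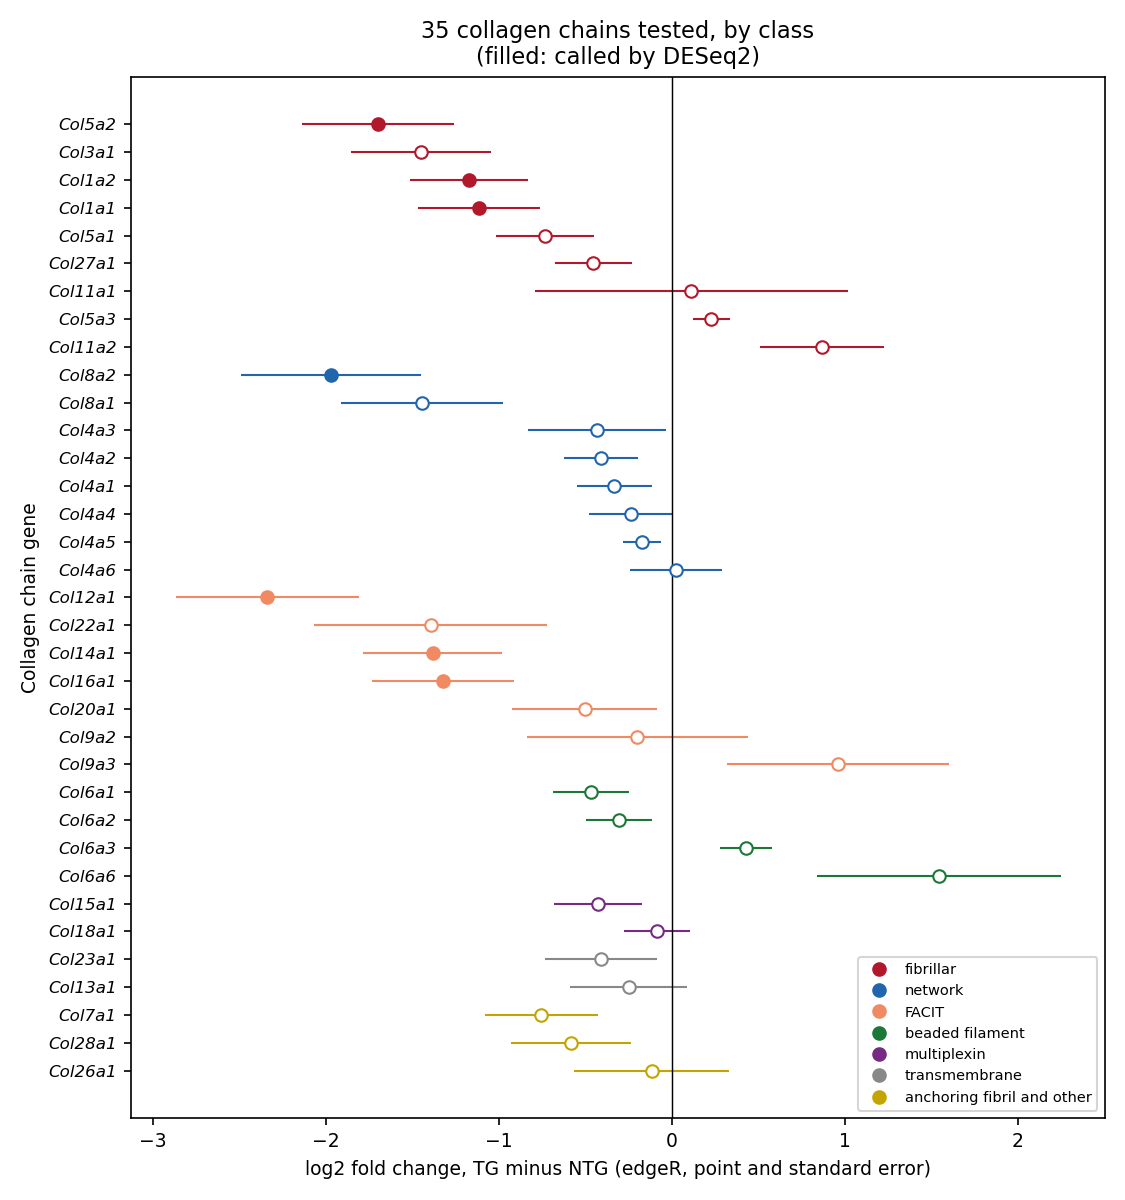
Log2 fold change of TG relative to NTG (x axis, edgeR) for the 35 collagen chains tested (y axis), coloured by class, with points for the fit and bars for its standard error. The 7 filled points, called by DESeq2, all lie below 0 and belong to the fibrillar, network and FACIT classes, and the largest value is that of Col6a6 at 1.54.

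The library labelled NTG 1 had low levels of many collagens among the NTG libraries. Leaving it out therefore tends to widen a lower level in TG and cannot check the direction. Without it the median of the 36 chains tested was −0.55, and 14 were lower (13.3% of all genes) and 3 higher (13.7%) at an unadjusted p under 0.05. edgeR then called 1 chain lower, Col3a1 (2.85% of all genes were called lower), and 1 higher, Col6a6 (2.67%), and DESeq2 called 10 lower (5.79%) and 3 higher (5.92%). In 19 chains every remaining TG library was then below both remaining NTG libraries (23.5% of all genes) and in 5 above both (23.2%). Other single libraries weighed as much on the calls. Without NTG 2 the median was −0.36 and DESeq2 called 0 chains (0.507% of all genes lower and 0.313% higher), where 6 were lower at an unadjusted p under 0.05 with edgeR (5.37%). Without TG 2 DESeq2 called 13 lower and 0 higher (3.23% and 1.94%), with 1 called lower by edgeR, Col8a2 (0.0266% lower and 0.0199% higher). Of the 35 chains tested without TG 2, 19 were lower and 0 higher at an unadjusted p under 0.05 (10.2% and 9.08% of all genes). In 21 of them both remaining TG libraries lay below every NTG library (21.1%) and in 0 above (20%).

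The count of calls also varied with the test and with the other libraries left out. The likelihood-ratio test of edgeR called 7 chains lower and 0 higher (2.29% and 1.39% of all genes). A block on the replicate number gave 4 lower and 0 higher (0.995% and 0.569%), and 5 and 0 with a correction for gene length added (0.914% and 0.738%). With no filter on low counts 0 of the 44 were called (0.432% in each direction). Without NTG 3, TG 1 and TG 3 in turn, DESeq2 called 4, 1 and 2 chains lower (0.853%, 0.501% and 0.445%) and 0 higher (0.264%, 0.679% and 0.193%), and without TG 3 edgeR called 0 (0% lower and 0.00664% higher).

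Summed over the 44 genes, collagen reached 7083, 12984 and 9799 CPM in the NTG libraries and 5725, 7513 and 4506 CPM in the TG libraries. NTG 2 was the highest and TG 3 the lowest, and the groups overlapped because the library labelled NTG 1 lay under TG 2. The means were 9955 ± 2953 CPM in NTG and 5915 ± 1512 CPM in TG (SD, n = 3), a ratio of NTG to TG of 1.68, which was 1.93 without the library labelled NTG 1 and 1.43 without NTG 2. The order of the libraries recurred from chain to chain: among the 35 tested, NTG 2 was the highest of all 6 libraries in 17, TG 2 was the highest TG library in 30, and the library labelled NTG 1 was the lowest NTG library in 21.

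Classes did not share this difference equally. Fibrillar chains took 37.6%, 49.1% and 36.5% of all collagen counts in NTG and 29.1%, 31.8% and 28.9% in TG. FACIT chains took 3.21%, 3.9% and 3.26% in NTG and 1.63%, 2.44% and 1.8% in TG. Network chains took 43.1%, 36.2% and 46.8% in NTG and 53.1%, 47.5% and 50.9% in TG. Multiplexin chains took 6.25%, 4.73% and 5.85% in NTG and 6.46%, 7.58% and 6.75% in TG. In each of these 4 classes the groups did not overlap, the TG shares being smaller for fibrillar and FACIT chains and larger for network and multiplexin chains, and no test was made on the shares. The NTG to TG ratio of the summed CPM was 2.36 for fibrillar, 2.94 for FACIT, 1.39 for network, 1.31 for multiplexin and 1.18 for beaded filament chains, and without the library labelled NTG 1 these ratios were 2.79, 3.46, 1.56, 1.43 and 1.22, and without NTG 2 they were 1.75, 2.29, 1.29, 1.23 and 1.15.

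**Figure D2:**
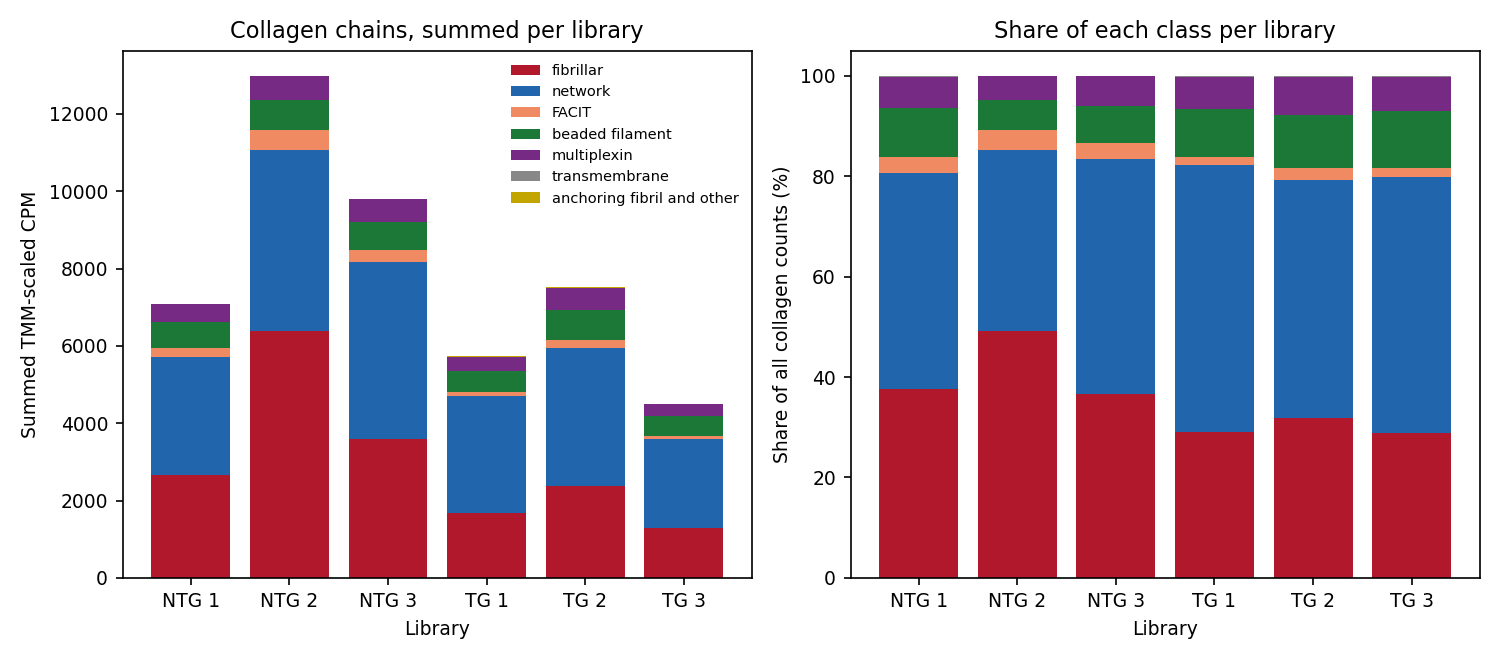
Left, TMM-scaled CPM (y axis) summed over the collagen chains of each class in each of the 6 libraries (x axis), and right, the share of each class in all collagen counts of the library in percent. The left bars run from 4506 CPM in TG 3 to 12984 CPM in NTG 2, and on the right the fibrillar share is at least 36.5% in NTG and at most 31.8% in TG.

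Markers of some cell types were lower in TG like these sums, and those of others were not. The summed level of 8 genes of activated fibroblasts (Postn, Cthrc1, Fap, Meox1, Comp, Thbs4, Cilp and Acta2) was 2259 to 6070 CPM in NTG and 533 to 1587 CPM in TG, and 7 of the 8 had a log2 fold change below 0 (51.3% of all genes), with a median of −2.18. Postn, Cthrc1, Comp, Thbs4 and Cilp were lower without overlap (12.3% of all genes), whereas Acta2, the smooth muscle actin that marks myofibroblasts and vessel walls, was higher without overlap (11.2% of all genes, log2 fold change 0.42). The summed level of 8 general fibroblast genes ranged from 4115 to 4622 CPM in NTG and from 3352 to 4494 CPM in TG, with 7 of 8 below 0 and a median of −0.28. Among these, Pi16 (log2 fold change −1.05) and Dcn (−0.65) were lower without overlap. DESeq2 called both (adjusted p-values of 0.00338 and 0.00934, with 2.4% of all genes called lower), and called 0 of the 8 without NTG 2 (0.507%). Ddr2 (−0.26) was also lower without overlap, and Gsn was at 0.24 (0.029 without NTG 2). Tcf21, a transcription factor of resident cardiac fibroblasts, had a log2 fold change of −0.05, which was 0.16 without NTG 2, and Pdgfra one of −0.39, which was −0.25 without NTG 2. For macrophages 7 of 7 markers were below 0 (493 to 986 against 406 to 560 CPM), for erythrocytes 4 of 4 (1236 to 2085 against 716 to 848 CPM), and for cardiomyocytes 8 of 8 were above 0 (20492 to 33441 against 32514 to 39691 CPM). DESeq2 called 3 of the 4 erythrocyte genes lower (2.4% of all genes), with an adjusted p of 6.1e-07 for Hbb-bs. It called 0 of the macrophage and 0 of the cardiomyocyte genes. The endothelial list (1593 to 1821 against 1686 to 1842 CPM) had a median of 0.033 and the list of smooth muscle and pericytes (1476 to 1891 against 1603 to 1929 CPM) one of 0.042, but members of both went different ways. Of the 7 smooth muscle and pericyte genes, Myh11, the smooth muscle myosin heavy chain (log2 fold change 0.70), and Cnn1, calponin (0.75), were higher without overlap, and DESeq2 called both (adjusted p-values of 0.0168 and 0.0446, with 1.54% of all genes called higher). DESeq2 called 0 of the 7 higher without TG 1 or without TG 3 (0.679% and 0.193% of all genes). It called 1 without NTG 2, NTG 3 or TG 2 (0.313%, 0.264% and 1.94%) and 2 without the library labelled NTG 1 (5.92%). Of the 7 endothelial genes, Kdr (0.37), Tie1 (0.23, and 0.10 without NTG 2) and Egfl7 (0.30) were higher and Emcn (−0.19) lower without overlap, and DESeq2 called none. Low sums were seen for Schwann cell genes (10.4 to 13.9 against 14.1 to 16.5 CPM), epicardial genes (23.9 to 42 against 23.2 to 35.1 CPM) and chondrocyte genes (8.71 to 18.3 against 13.6 to 17.2 CPM), and of these Upk1b had 0 counts in every TG library and Matn3 in every NTG library. Atrial genes differed between libraries of a group (16.4 to 78.2 against 20.8 to 183 CPM), with Myl7, the atrial myosin light chain, at 19.5, 0.159 and 0 CPM in NTG and 1.59, 7.67 and 64.4 CPM in TG. Without the library labelled NTG 1, the NTG to TG ratio of the summed level was 5.25 for activated fibroblast, 1.13 for fibroblast, 1.62 for macrophage, 2.43 for erythrocyte and 0.653 for cardiomyocyte genes, and without NTG 2 the ratios were 3.24, 1.16, 1.12, 1.89 and 0.829. The macrophage median went from −0.59 to −0.21 without NTG 2 and the cardiomyocyte median from 0.43 to 0.25. The part of these cell types in the collagen values was not tested, and in RNA of whole tissue fewer fibroblasts and less collagen RNA per fibroblast cannot be told apart.

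Levels per length spanned from the basement membrane chains to chains barely detected. In NTG the mean RPKM was 277 for Col4a1 and 205 for Col4a2, the paired chains of type IV collagen, then 171 for Col3a1, 126 for Col1a1, 77.3 for Col15a1, 76.2 for Col1a2, 72.3 for Col6a1, 67.2 for Col8a1, 44.4 for Col5a2 and 37.9 for Col6a2. In TG it was 220 for Col4a1, 154 for Col4a2, 62.4 for Col3a1, 58.2 for Col1a1, 57.5 for Col15a1, 52.3 for Col6a1, 33.7 for Col1a2, 30.6 for Col6a2, 24.6 for Col8a1 and 13.7 for Col5a2. Col6a2 stood above Col8a1 in every TG library and below it in every NTG library, whereas Col6a1 stood above Col1a2 in every library except NTG 2. Without the library labelled NTG 1 the NTG means were 310, 231, 207 and 146 for the first 4, 84.1 for Col15a1 and 88 for Col1a2. Neighbours in these orders overlapped between libraries: over all 6, Col3a1 ranged from 44.9 to 274 RPKM and Col1a1 from 40.9 to 186 RPKM. Col4a1 was the highest collagen in every library, at 211, 311 and 309 RPKM in NTG and 227, 259 and 173 RPKM in TG. The 9 chains that did not pass the filter had 1 to 64 counts over all libraries together. They were the cartilage chains Col2a1, Col10a1 and Col9a1 together with Col24a1, Col6a4, Col6a5, Col19a1, Col17a1 and Col25a1, and all but Col25a1 had 0 counts in at least 1 library, where a floor of 3 counts corresponds to 0.159 to 0.216 CPM.

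**Figure D3:**
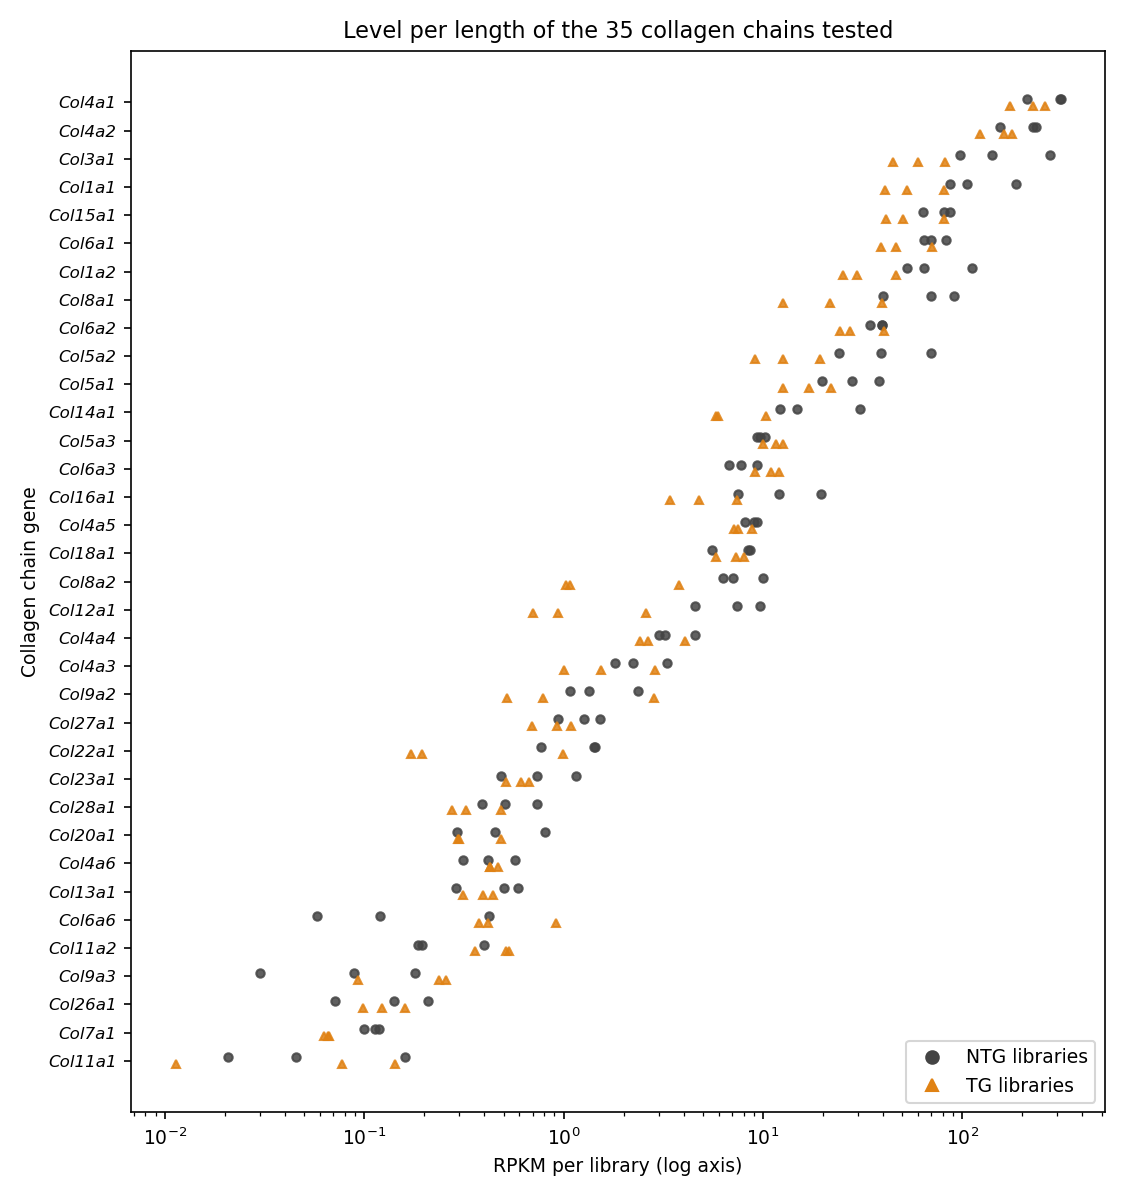
RPKM (x axis, log scale) of the 35 collagen chains tested (y axis, ordered by mean RPKM) in the 3 NTG libraries (circles) and the 3 TG libraries (triangles). Levels run from 311 RPKM for Col4a1 in NTG 2 down to 0.0113 RPKM for Col11a1 in TG 1, and the gap between triangles and circles is wide for Col12a1 and Col8a2 and absent for Col4a6.

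Among the fibrillar chains, 6 of 9 tested had a log2 fold change below 0, with a median of −0.74, and 5 were lower and 1 higher at an unadjusted p under 0.05 (51.3%, 9.76% and 8.83% of all genes). The median was −0.95 without the library labelled NTG 1, −0.47 without NTG 2 and −0.55 without TG 3. Col3a1, the only chain of type III collagen, was at 956, 2688 and 1385 CPM in NTG and at 590, 807 and 441 CPM in TG. Every TG library lay below every NTG library, and NTG 2 stood well above the other two. The log2 fold change was −1.45 (SE 0.41, edgeR adjusted p = 0.196), and it was −1.74 (adjusted p = 0.0466) without the library labelled NTG 1 and −0.94 without NTG 2, and the DESeq2 adjusted p on all libraries was 0.0735. Col1a1, the major chain of type I collagen, was at 571, 1219 and 695 CPM in NTG and at 347, 531 and 268 CPM in TG. The groups did not overlap, although TG 2 came close to the library labelled NTG 1. Its log2 fold change was −1.12 (SE 0.35, edgeR adjusted p = 0.211), −1.33 without that library and −0.73 without NTG 2, and DESeq2 called it lower with an adjusted p of 0.0179.

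Col1a2, which supplies the partner chain in type I trimers, was at 655, 1389 and 799 CPM in NTG and at 368, 578 and 313 CPM in TG. It followed Col1a1 library by library, again without overlap. It had a log2 fold change of −1.18 (SE 0.34, edgeR adjusted p = 0.200), −1.39 without the library labelled NTG 1 and −0.79 without NTG 2, and the DESeq2 adjusted p was 0.00835. Col5a2, a chain of type V collagen, which is buried in type I fibrils and limits their width, was at 231, 669 and 377 CPM in NTG and at 121, 185 and 88 CPM in TG. No TG library reached the lowest NTG library, and the fitted difference was the largest of the tested fibrillar chains. In the fit its log2 fold change was −1.70 (SE 0.44, edgeR adjusted p = 0.196), −2.0 without the library labelled NTG 1 and −1.21 without NTG 2, with a DESeq2 adjusted p of 0.0389.

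The other chains of type V did not share this size of difference. Col5a1 was at 168, 324 and 237 CPM in NTG and at 145, 186 and 107 CPM in TG, with a log2 fold change of −0.74 (SE 0.28, edgeR adjusted p = 0.235). TG 2 lay above the library labelled NTG 1, so the groups overlapped. Without that library the log2 fold change was −0.95 and DESeq2 called it lower (adjusted p = 0.0034), as it did without TG 2 (adjusted p = 0.0286), and without NTG 2 the log2 fold change was −0.47. Col5a3, a minor type V chain, was at 66.1, 63.5 and 70 CPM in NTG and at 86, 79.5 and 67.9 CPM in TG, with a log2 fold change of 0.23 (SE 0.11, edgeR adjusted p = 0.298). Its TG values overlapped NTG only through TG 3, and the log2 fold change was 0.22 without the library labelled NTG 1 and 0.15 without TG 1. Col27a1 had a log2 fold change of −0.46 and Col11a1 one of 0.11 with an SE of 0.90 on 2 to 32 counts per library, and without the library labelled NTG 1 these were −0.62 and 1.25, and without NTG 2 they were −0.28 and −0.35. Col11a2, a chain best known from cartilage, was at 2.73, 1.27 and 1.33 CPM in NTG and 2.45, 3.64 and 3.52 CPM in TG, a log2 fold change of 0.87 (SE 0.36, edgeR adjusted p = 0.254). It was low in every library, and the library labelled NTG 1 lay inside the TG range. Without that library the log2 fold change was 1.3, and DESeq2 called it higher (adjusted p = 0.0173).

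**Figure D4:**
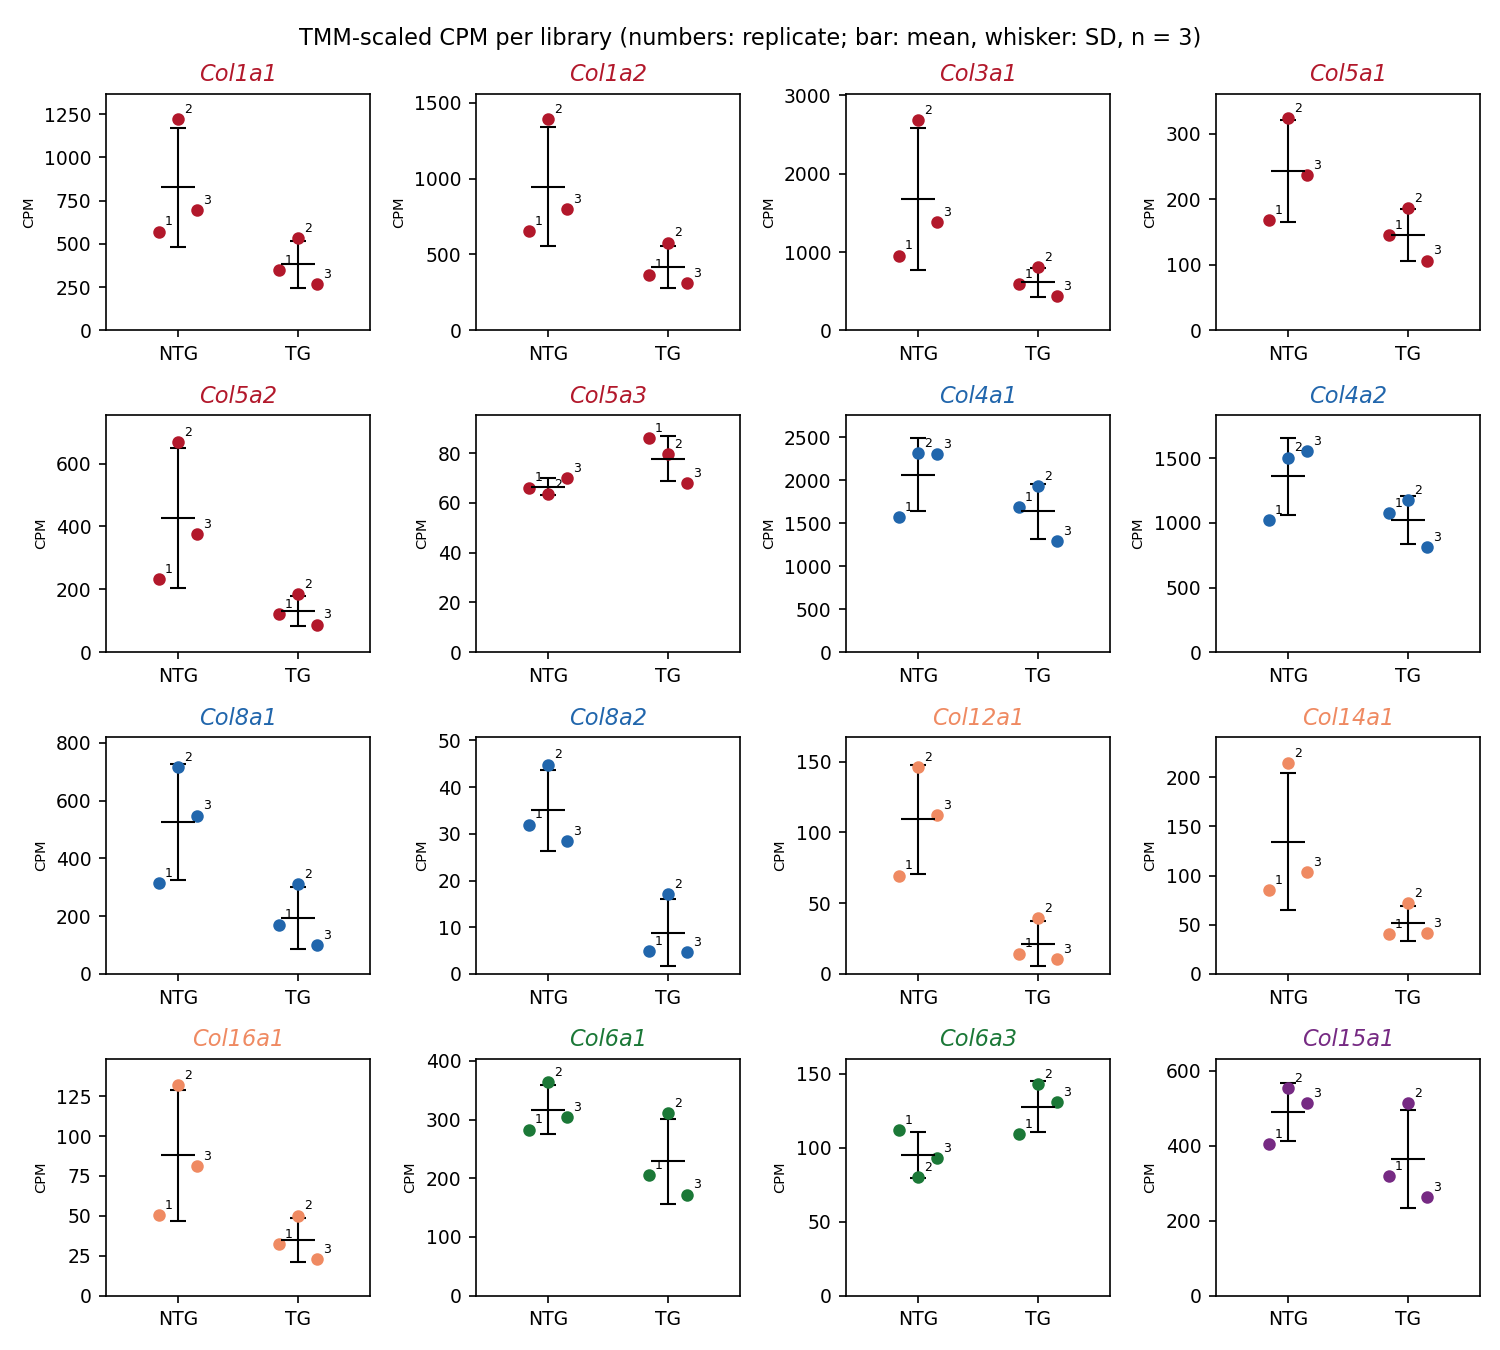
TMM-scaled CPM (y axis, from 0) of 16 collagen chains in NTG and TG, 1 point for each library with its replicate number, the bar marking the mean and the whiskers the SD of 3 libraries. Col1a1, Col1a2, Col3a1, Col5a2, Col8a1, Col8a2, Col12a1, Col14a1 and Col16a1 show no overlap between the groups, and Col5a3 and Col6a3 have the higher mean in TG.

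Of the 8 network chains tested, 7 had a log2 fold change below 0 (51.3% of all genes), with a median of −0.37. Leaving out single libraries moved this median between −0.54 (without the library labelled NTG 1) and −0.17 (without TG 3), with −0.34 without NTG 2 and −0.21 without NTG 3. The type IV chains, which build the basement membrane, overlapped between the groups, and the type VIII chains, short-chain collagens of vessel walls and remodelled myocardium, did not. Col4a1 was at 1575, 2320 and 2308 CPM in NTG and 1693, 1930 and 1293 CPM in TG (log2 fold change −0.34, SE 0.22, edgeR adjusted p = 0.42). Col4a2 was at 1019, 1504 and 1554 CPM in NTG and 1076, 1178 and 813 CPM in TG (log2 fold change −0.41, SE 0.21, edgeR adjusted p = 0.331). For both, the library labelled NTG 1 lay among the TG libraries, and without it the log2 fold changes were −0.50 and −0.58, the second being called lower by DESeq2 (adjusted p = 0.0156). Without NTG 2 they were −0.25 and −0.33, and without TG 3 −0.19 and −0.27. The chains Col4a3, Col4a4 and Col4a5, which form the specialised network known from kidney, had log2 fold changes of −0.43, −0.24 and −0.17, and Col4a6 one of 0.024, all with overlap. These values became −0.61, −0.31, −0.23 and 0.26 without the library labelled NTG 1, −0.16, −0.026, −0.13 and −0.17 without NTG 3, and −0.95, −0.51, −0.27 and −0.027 without TG 2. Without TG 3 they were −0.15, −0.094, −0.11 and 0.047.

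Col8a1 was at 315, 715 and 548 CPM in NTG and at 170, 310 and 98.4 CPM in TG. TG 2 came just under the library labelled NTG 1, and the other TG libraries were far lower. Its log2 fold change was −1.45 (SE 0.47, edgeR adjusted p = 0.213), and on all libraries neither edgeR nor DESeq2 called it, the DESeq2 adjusted p being 0.115. DESeq2 called it without the library labelled NTG 1 (log2 fold change −1.71, adjusted p = 0.0396) and without TG 2 (−1.96, adjusted p = 8.1e-06). Its partner Col8a2 was at 31.9, 44.8 and 28.4 CPM in NTG and at 4.83, 17.1 and 4.63 CPM in TG. The groups were clearly apart, with TG 2 between the other TG libraries and NTG. This gave a log2 fold change of −1.97 (SE 0.52, edgeR adjusted p = 0.196), −2.04 without the library labelled NTG 1 and −2.89 without TG 2, where edgeR called it (adjusted p = 0.0393), and DESeq2 called it on all libraries (adjusted p = 0.0471). DESeq2 did not call Col8a2 without the library labelled NTG 1 or without NTG 2.

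FACIT chains gave the lowest class median of fold changes, −1.32 over the 7 tested, 6 of which were below 0 (51.3% of all genes), and DESeq2 called 3 of them (2.4% of all genes). The median was −1.27 without the library labelled NTG 1 and −0.87 without NTG 2. With no filter on low counts it was −0.51 over all 9, and the fibrillar median of −0.74 was then the lower one. Col12a1, which binds fibrils in tissues under tension, was at 69.4, 146 and 112 CPM in NTG and at 14.4, 39.4 and 10.7 CPM in TG. The lowest NTG library stood above the highest TG library by a wide margin. The log2 fold change of −2.34 (SE 0.53, edgeR adjusted p = 0.196) was the lowest of all 35 chains, a level 5.07 times higher in NTG. It was −2.59 without the library labelled NTG 1 and −3.13 without TG 2, and the DESeq2 adjusted p on all libraries was 0.0129.

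Col14a1, a fibril-associated chain that regulates fibril growth, was at 85.3, 214 and 103 CPM in NTG and at 40.6, 72.3 and 41.5 CPM in TG. Col16a1, which links fibrils to the surrounding matrix, was at 50.7, 132 and 81.2 CPM in NTG and at 32.1, 50.2 and 23 CPM in TG. Neither overlapped, but for Col16a1 TG 2 and the library labelled NTG 1 were almost equal. The log2 fold changes were −1.38 for Col14a1 (SE 0.40, edgeR adjusted p = 0.204) and −1.32 for Col16a1 (SE 0.41, edgeR adjusted p = 0.21), and −1.63 and −1.60 without the library labelled NTG 1. DESeq2 called both, with adjusted p-values of 0.00615 and 0.0121. Without NTG 2 the log2 fold changes were −0.87 and −0.91, and DESeq2 called neither. Col22a1, a chain of tissue junctions, was at 13.1, 7.12 and 13.2 CPM in NTG and 1.59, 9.1 and 1.79 CPM in TG, where TG 2 alone reached the NTG range. Its log2 fold change of −1.40 (SE 0.67, edgeR adjusted p = 0.315) was −2.71 without TG 2, where DESeq2 called it (adjusted p = 1.3e-08), and −1.27 without the library labelled NTG 1. Of the low FACIT chains, Col20a1 and Col9a2 had log2 fold changes of −0.51 and −0.20 and Col9a3 one of 0.96 on 2 to 16 counts per library, which were −0.050, −0.31 and 0.88 without the library labelled NTG 1 and −0.79, 0.20 and 0.53 without NTG 3. Without NTG 2 they were −0.59, −0.42 and 1.75, and without TG 2 −0.79, −1.29 and 0.81.

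Beaded filament collagen, type VI, surrounds cells and anchors them to the matrix, and its chains did not move together. Col6a1 was at 283, 363 and 305 CPM in NTG and 205, 310 and 172 CPM in TG (log2 fold change −0.47, SE 0.22, edgeR adjusted p = 0.297). Col6a2 was at 287, 330 and 330 CPM in NTG and 226, 335 and 203 CPM in TG (log2 fold change −0.31, SE 0.19, edgeR adjusted p = 0.403). In both, TG 1 and TG 3 lay below NTG and TG 2 lay within or above it. Their log2 fold changes were −0.55 and −0.37 without the library labelled NTG 1. Without TG 2 they were −0.75 and −0.56, and DESeq2 then called both lower (adjusted p-values of 0.00169 and 0.00646), and without TG 3 they were −0.30 and −0.17. Col6a3, the long chain that completes the trimer, had 112, 80.4 and 93.2 CPM in NTG and 109, 143 and 131 CPM in TG. Its TG mean was the higher one, and only the library labelled NTG 1 overlapped with TG 1. The log2 fold change was 0.43 (SE 0.15, edgeR adjusted p = 0.216), and without that library it was 0.56, which DESeq2 called (adjusted p = 0.00962).

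Col6a6, an alternative chain to Col6a3, had 3.89, 0.531 and 1.1 CPM in NTG and 3.46, 3.81 and 8.4 CPM in TG. The library labelled NTG 1 sat inside the TG range, and the other NTG libraries were far lower. The fitted log2 fold change was 1.54 (SE 0.71, edgeR adjusted p = 0.294), and 2.68 without the library labelled NTG 1, where edgeR called it (adjusted p = 0.0381), and 1.01 without TG 3. Col6a5 and Col6a4, the genes next to it on chromosome 9, held 8 and 2 counts in all libraries together and were not tested.

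Multiplexins have an interrupted collagen helix and end in a non-collagenous domain from which antiangiogenic fragments can be released, and both are basement membrane proteins. Col15a1 was at 404, 554 and 514 CPM in NTG and 318, 513 and 263 CPM in TG (log2 fold change −0.43, SE 0.25, edgeR adjusted p = 0.386). Col18a1, the source of endostatin, was at 38.8, 60.2 and 59 CPM in NTG and 51.4, 56.5 and 41.1 CPM in TG (log2 fold change −0.086, SE 0.19, edgeR adjusted p = 0.83). Both overlapped. Col15a1 was at −0.55 without the library labelled NTG 1, at −0.33 without NTG 2, at −0.24 without TG 3 and at −0.75 without TG 2, where DESeq2 called it (adjusted p = 0.0055), and the sign of Col18a1 depended on single libraries, being 0.021 without NTG 2 and −0.27 without the library labelled NTG 1.

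Transmembrane collagens were low. Col23a1 was at 2.8, 6.64 and 4.22 CPM in NTG and 2.96, 3.52 and 3.83 CPM in TG (log2 fold change −0.41, SE 0.32). Col13a1, found at the neuromuscular junction, was at 2.73, 1.33 and 2.31 CPM in NTG and 1.44, 1.82 and 2.04 CPM in TG (log2 fold change −0.25, SE 0.34). The groups overlapped in both, and they had log2 fold changes of −0.66 and −0.036 without the library labelled NTG 1 and of −0.035 and −0.51 without NTG 2. Col25a1, also known from motor nerve targets, was untested at 0.546, 0.531 and 0.521 CPM in NTG and 1.01, 0.739 and 0.617 CPM in TG, and Col17a1, a hemidesmosome protein of epithelium, held 17 counts in all.

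Of the remaining chains, Col7a1, which forms the anchoring fibrils of skin, had 1.02, 1.17 and 1.21 CPM in NTG and 0.649, 0.682 and 0.679 CPM in TG. The groups did not overlap and the libraries of each were close together, at 9 to 22 counts per library. Its fitted log2 fold change was −0.76 (SE 0.33, edgeR adjusted p = 0.264) and −0.82 without the library labelled NTG 1. Col28a1 was at 1.91, 3.61 and 2.49 CPM in NTG and 1.59, 2.39 and 1.36 CPM in TG (log2 fold change −0.59, SE 0.35). Col26a1 was at 1.71, 0.584 and 1.16 CPM in NTG and 1.01, 1.31 and 0.803 CPM in TG (log2 fold change −0.12, SE 0.45). Neither of the last pair separated the groups, and without the library labelled NTG 1 they were at −0.78 and 0.27, and without NTG 2 at −0.30 and −0.45.

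Ratios of chains within a library do not depend on library scaling and were compared for 6 pairs by a two-sided exact permutation test, whose smallest possible p with 3 against 3 libraries is 0.1. The type I partners kept a near constant ratio: Col1a1 to Col1a2 counts were 0.873, 0.878 and 0.87 in NTG and 0.944, 0.92 and 0.858 in TG, a log2 difference of 0.053 (exact p = 0.4, adjusted p = 0.4 over the 6 ratios). Per length Col1a1 was the higher of the pair, with RPKM ratios of 1.65, 1.66 and 1.65 in NTG and 1.79, 1.74 and 1.62 in TG. The Col4a1 to Col4a2 ratio was 1.55, 1.54 and 1.49 in NTG and 1.57, 1.64 and 1.59 in TG. These values did not overlap although the log2 difference was only 0.071 (exact p = 0.1, adjusted p = 0.24). In contrast, Col5a1 to Col5a2 was 0.725, 0.484 and 0.629 in NTG and 1.2, 1.01 and 1.21 in TG. All TG libraries were above all NTG libraries, and the log2 difference was 0.91 (exact p = 0.1, adjusted p = 0.24). Col3a1 to Col1a1 (log2 difference −0.26), Col6a1 to Col6a2 (−0.17) and Col8a1 to Col1a1 (−0.43) overlapped between groups, each with an exact p of 0.2 and an adjusted p of 0.24. Without the library labelled NTG 1 the differences for the 6 pairs in the order given were 0.053, 0.081, 1.04, −0.37, −0.18 and −0.53.

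A further pair of ratios was chosen after the values were seen, so their separation was selected, and they are given with no test. Col6a3 to Col6a1 counts were 0.396, 0.221 and 0.306 in NTG and 0.533, 0.462 and 0.762 in TG. Col5a3 to Col5a1 counts were 0.394, 0.196 and 0.295 in NTG and 0.592, 0.428 and 0.637 in TG. In both, each TG library was above each NTG library, and each ratio set a chain with a higher TG mean over one with a lower TG mean.

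Several of these genes lie side by side in the genome (GRCm38, the build whose GENCODE M21 coordinates matched those in the table for all 44 members). Col4a1 (chr8:11198423-11312826, minus strand) and Col4a2 (chr8:11312805-11449287, plus strand) stand head to head and overlap by 22 bases, and their log2 fold changes of −0.34 and −0.41 differed by less than either SE. Col4a4 and Col4a3 stand head to head on chromosome 1 with 71 bases between them, at −0.24 and −0.43. Col4a6 and Col4a5 do so on the X chromosome with 1308 bases between them, at 0.024 and −0.17. Col3a1 (chr1:45311538-45349706, plus strand) and Col5a2 (chr1:45374321-45503282, minus strand) stand tail to tail with 24614 bases between them, at −1.45 and −1.70. Exon bases shared with another gene were found for 13 of the 44, with 6.07% of the exon bases for Col9a3 (shared with Tcfl5) and 5.65% for Col4a3 and at most 1.9% with any other gene for the rest, and the sources used here do not state whether counting used strand, so reads there cannot be assigned.

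Upstream sequence is shown for chains that differ in level and in direction: Col3a1 and Col8a1, each lower without overlap, against Col5a3 and Col6a3, each with a higher mean in TG. The 250 bases before the RefSeq start of each gene (build GRCm38.p6, 5′ to 3′ on the gene's strand) are printed, with capitals marking TATAAA (the TATA box), CCAAT (bound by NF-Y), GGGCGG (the GC box of Sp1), CATTCC (the core bound by TEAD factors) and TGAGTCA (the AP-1 site) on either strand, so that CCGCCC marks GGGCGG on the other strand. Col3a1 is from chr1:45311288-45311537 (plus strand), Col8a1 from chr16:57754738-57754987 (minus strand), Col5a3 from chr9:20815068-20815317 (minus strand) and Col6a3 from chr1:90843972-90844221 (minus strand).
Col3a1: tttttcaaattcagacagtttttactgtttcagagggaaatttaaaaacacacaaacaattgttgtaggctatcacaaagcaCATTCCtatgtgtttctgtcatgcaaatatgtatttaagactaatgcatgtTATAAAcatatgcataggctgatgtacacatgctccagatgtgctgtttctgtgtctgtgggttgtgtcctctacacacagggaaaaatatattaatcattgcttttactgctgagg
Col8a1: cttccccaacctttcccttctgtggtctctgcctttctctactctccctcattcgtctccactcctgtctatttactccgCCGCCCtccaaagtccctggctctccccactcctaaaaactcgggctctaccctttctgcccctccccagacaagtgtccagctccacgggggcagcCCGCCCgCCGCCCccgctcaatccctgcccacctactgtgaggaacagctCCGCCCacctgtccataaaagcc
Col5a3: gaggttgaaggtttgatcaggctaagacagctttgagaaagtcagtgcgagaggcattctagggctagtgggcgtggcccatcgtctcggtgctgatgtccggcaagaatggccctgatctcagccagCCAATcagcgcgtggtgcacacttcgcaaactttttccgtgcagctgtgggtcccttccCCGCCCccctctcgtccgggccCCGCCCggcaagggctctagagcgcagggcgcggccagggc
Col6a3: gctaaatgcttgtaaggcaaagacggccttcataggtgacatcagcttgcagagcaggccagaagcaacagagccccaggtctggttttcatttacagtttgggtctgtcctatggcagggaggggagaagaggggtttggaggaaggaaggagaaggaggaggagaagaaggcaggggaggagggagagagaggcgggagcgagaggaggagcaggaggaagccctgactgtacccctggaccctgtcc
Col3a1 held 1 TATAAA and 1 CATTCC, Col8a1 held 4 GGGCGG, Col5a3 held 1 CCAAT and 2 GGGCGG, and Col6a3 held none of the 5 motifs. RefSeq promoters were found for 35 of the 44 members, in 38 windows. GGGCGG was present in 57.9% of these windows and in 32.7% of all 32851 windows of the same length, CCAAT in 34.2% and 33.8%, TATAAA in 13.2% and 12.4%, CATTCC in 10.5% and 12.6%, and TGAGTCA in 2.63% and 4.46%. These are matches of letters and say nothing of binding.

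Genes that modify, cut, link and bind collagen were also on balance lower in TG, and with all libraries no gene of the 6 lists was higher at an unadjusted p under 0.05, whereas with single libraries left out at most 1 gene of a list was. Without the library labelled NTG 1 this was so of 1 gene for propeptide cleavage and 1 of the degrading enzymes and inhibitors (13.7% of all genes). These lists were chosen with results of these data known, and some of their genes (Dcn, Lum, Ddr2, Comp and Postn) also stand in the fibroblast lists above. edgeR called 0 of their genes, and 9.76% of all genes were lower at an unadjusted p under 0.05 and 2.4% were called lower by DESeq2.

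Of 18 genes for chain modification and folding in the endoplasmic reticulum, 9 were lower at an unadjusted p under 0.05, with a median log2 fold change of −0.35, and DESeq2 called 4. Plod2, the lysyl hydroxylase that prepares telopeptides for crosslinks, was at 81.2 ± 18.6 CPM in NTG and 42.7 ± 6.88 CPM in TG (SD, n = 3, log2 fold change −0.93). P3h2, a prolyl 3-hydroxylase of basement membrane collagen, had a log2 fold change of −0.86, and Fkbp10, a collagen chaperone, one of −0.74. Serpinh1, the collagen chaperone HSP47, had one of 0.078, and P4ha1, the main prolyl 4-hydroxylase, one of −0.0089. These last were chosen after their values were seen, and both signs depended on single libraries (−0.022 to 0.19 and −0.13 to 0.14 with each left out).

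Of 8 genes for propeptide cleavage, 5 were lower at an unadjusted p under 0.05 and DESeq2 called 2, with a median of −0.63. Pcolce, the enhancer of procollagen C-proteinase, was at 188 ± 36.4 CPM in NTG and 114 ± 25.4 CPM in TG (log2 fold change −0.72). Adamts2, the procollagen N-proteinase, had a log2 fold change of −1.19 and Pcolce2 one of −0.68. Log2 fold changes above 0 were those of Tll2 (0.95, with 0.38 without NTG 2 and 2.01 without the library labelled NTG 1), Adamts14 (0.63) and Adamts3 (0.53). Adamts3 was higher in every TG library than in any NTG library (11.2% of all genes were), at 1.77, 2.23 and 3.07 CPM in NTG and 3.61, 3.52 and 3.15 CPM in TG. All 5 lysyl oxidases, which crosslink collagen and elastin, were lower at an unadjusted p under 0.05, with a median of −1.28, and DESeq2 called 4. Lox itself was at 114, 614 and 177 CPM in NTG and at 27.2, 41.4 and 14.1 CPM in TG. No TG library came near the lowest NTG library, and NTG 2 was by far the highest. The log2 fold changes were −3.45 for Lox (SE 0.74, edgeR adjusted p = 0.196), −2.06 for Loxl3 and −0.87 for Loxl1. Without NTG 2 these were −2.40, −1.63 and −0.71, and without the library labelled NTG 1 −3.85, −2.37 and −1.01.

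Of 9 proteins of the fibril surface, 7 were lower at an unadjusted p under 0.05 and the same number was called by DESeq2, with a median of −1.40. Bgn, the proteoglycan biglycan, was at 2312 ± 798 CPM in NTG and 879 ± 324 CPM in TG (log2 fold change −1.40), Comp, a thrombospondin that catalyses fibril assembly, had a log2 fold change of −2.62, and Fmod, fibromodulin, one of −1.90. Of 9 tested collagen receptors, 5 were lower at an unadjusted p under 0.05 and DESeq2 called 1, Mrc2, a receptor for collagen uptake. Itga11, the fibroblast integrin for fibrillar collagen, was at 21.6, 21.3 and 20.9 CPM in NTG and 10, 17.5 and 12.5 CPM in TG, without overlap (log2 fold change −0.67). Mrc2 had a log2 fold change of −0.84 and Ddr2, a collagen-sensing tyrosine kinase, one of −0.26.

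Enzymes that degrade collagen and their inhibitors were mostly lower as well. Of 8 tested, 6 were lower at an unadjusted p under 0.05 and DESeq2 called 3, with a median of −0.63. Timp2, an inhibitor that also helps activate Mmp2, was at 374 ± 46 CPM in NTG and 235 ± 37.4 CPM in TG (log2 fold change −0.67). Mmp14, a membrane-bound collagenase, had a log2 fold change of −0.86 and Timp1, an inhibitor induced in fibrosis, one of −2.69. Above 0 were Mmp13, a collagenase, at 0.84 (unadjusted p = 0.0574) and Timp4, an inhibitor abundant in heart, at 0.66 (0.31 without TG 1), both with overlap. Timp1 was at 26.7, 190 and 66.2 CPM in NTG and 11.3, 21.7 and 10.9 CPM in TG, without overlap, and its log2 fold change was −1.67 without NTG 2 and −3.13 without the library labelled NTG 1. Without the library labelled NTG 1, edgeR called 4 genes for modification and folding, 4 for propeptide cleavage, 1 lysyl oxidase, 2 proteins of the fibril surface, 0 receptors and 2 degrading enzymes or inhibitors, all lower (2.85% of all genes), and the 6 medians in that order were −0.46, −0.79, −1.54, −1.62, −0.45 and −0.76. Without NTG 2 edgeR called 0 of them and DESeq2 called 1, 0, 2, 2, 0 and 0 in the same order (0.507% of all genes lower), and the medians were −0.21, −0.48, −1.01, −1.12, −0.22 and −0.56.

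**Figure D5:**
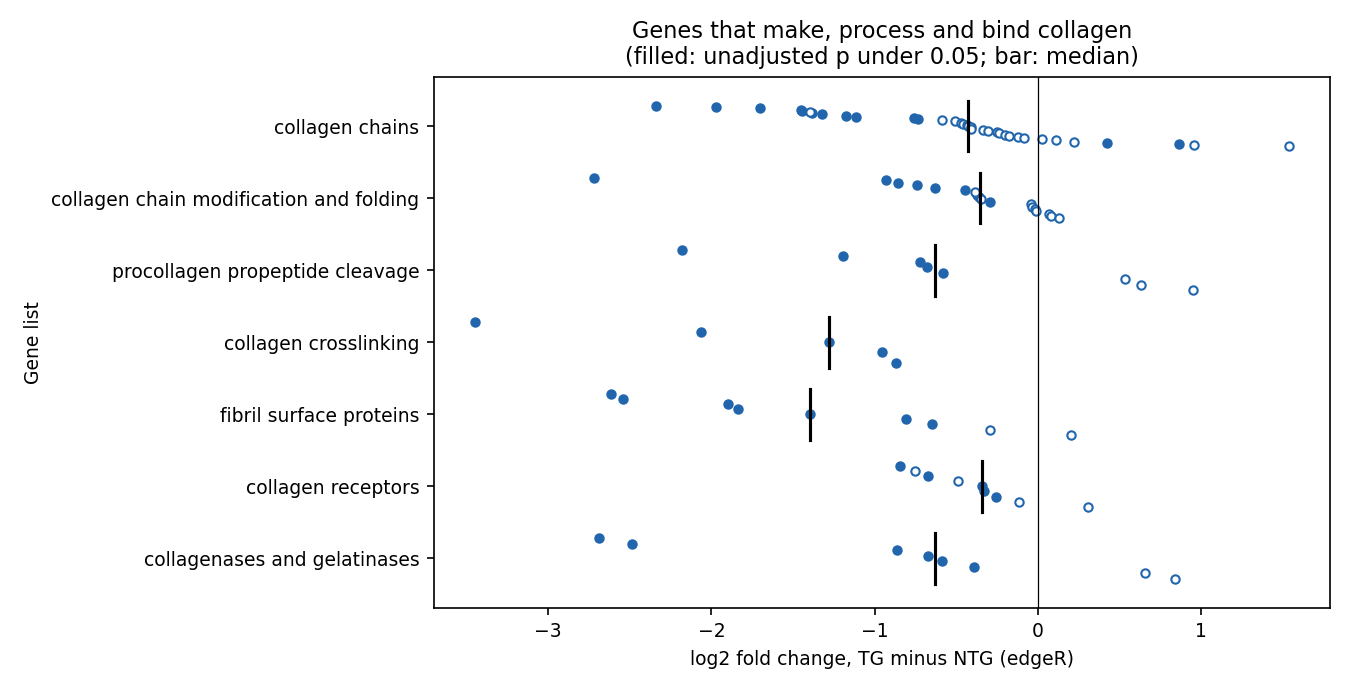
Log2 fold change of TG relative to NTG (x axis, edgeR) for the tested genes of the collagen chains and of 6 lists that make, process and bind collagen (y axis), with filled points for an unadjusted p under 0.05 and a bar at the median. The medians lie between −1.40 for fibril surface proteins and −0.34 for collagen receptors, and the filled points above 0 are the collagen chains Col6a3 and Col11a2.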

How the data were processed

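Poly-A selected RNA of left ventricle was sequenced from 3 TG and 3 NTG mice. The authors mapped the reads (HISAT2, per the labels), assembled transcripts with StringTie, counted reads per gene with featureCounts and deposited raw counts, 1 column per library, not normalized or pooled. The submitters' processing notes name the human build GRCh38, whereas identifiers and positions in the table are mouse, with 98.33% of the coordinates of shared genes identical to GENCODE M21. Strand setting and treatment of reads with several hits are not given in the sources used here. The number of columns of sample values left unmatched was 0.

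Genes were tested with edgeR 4.0.16 under R 4.3.3 (TMM, filterByExpr, robust quasi-likelihood test, no covariate), adjusted by Benjamini-Hochberg over 14774 genes. Standard errors are the log2 fold change over the root of the F statistic. DESeq2 1.42.0, the tool of the study, limma 3.58.1 (voom) and edgeR's likelihood-ratio test were alternatives, with other scalings, low-count filters, a length offset (loess of span 0.3), a replicate block and each library left out. Calls needed an adjusted p below 0.05 with a log2 fold change beyond 0.5 either way. Total counts per library of 14863568 to 17581220 set a floor of 3 counts at 0.159 to 0.216 CPM, which covers counting error only. The members, the lists and the rule for named genes were chosen with earlier results of these data known. The rule gave per-library values for Col1a1, Col3a1 and, in each class, the 3 chains of highest mean RPKM and of smallest unadjusted p, and in each list the 3 genes of smallest unadjusted p, and values of other genes are given beyond it. Ratios were compared by exact permutation. No libraries agreed within sampling noise (chi-square per gene of at least 15.5 for every pair, and of 17.8 to 71.2 for pairs with the library labelled NTG 1). The fits were first tested on simulated data.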

Additional observations from a re-analysis of the deposited data

How the results depend on the processing

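The number of collagen chains called depended on the test. Chains called lower were 0 with edgeR's quasi-likelihood test, 7 with DESeq2 and 7 with the likelihood-ratio test, which had Col3a1 in place of Col1a1, and 0 with voom, other scalings, other filters, the length offset or the adjusted p alone. With one library left out, edgeR called 0 to 1 lower and 0 to 1 higher, and DESeq2, run so after the data were seen, called 0 to 13 lower and 0 to 3 higher (10 lower and 3 higher without NTG 1, 4, 1 and 2 lower without NTG 3, TG 1 and TG 3). The median lay between −0.75 and −0.29 in these edgeR fits (−0.74 to −0.28 with DESeq2), and between −0.50 and −0.38 in all others. The cause was not tested. Same-numbered libraries of the 2 groups had correlations of 0.081, 0.17 and −0.25 between their deviations from the group means. TG 2 correlated best with its own number, and TG 1 and TG 3 did not. With 3 libraries a group, deviations from the group mean cannot decide whether the numbers pair the samples. With the replicate block, 4 chains were called lower, and 5 with the length offset as well, 0 being called higher. Scaling by library size alone shifted the all-gene median to −0.093 and the split at an unadjusted p under 0.05 from 1442 lower and 1305 higher genes to 1842 and 914, and for the chains from 11 and 2 to 11 and 0.

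The FACIT median moved from −1.32 to −0.51 with no low-count filter, when the fibrillar median was −0.74, so FACIT was then not the lowest class. The sign was the same in every fit for 30 of 35 chains, 25 below 0 and 5 above. With libraries left out in turn the edgeR values ran from −0.27 to 0.033 for Col18a1, −1.29 to 0.20 for Col9a2, −0.17 to 0.26 for Col4a6, −0.68 to 1.25 for Col11a1 and −0.45 to 0.27 for Col26a1. The sign reversed for Col18a1 (without NTG 2 0.021, with DESeq2 0.024, NTG 3 0.0018 and 0.011, TG 3 0.033 and 0.040), Col9a2 (NTG 3 0.20 and 0.20, TG 1 0.067 and 0.066, TG 3 0.19 and 0.19), Col4a6 (library size −0.052, NTG 3 −0.17 and −0.16, TG 2 −0.027 and −0.016), Col11a1 (NTG 2 −0.35 and −0.40, NTG 3 −0.15 and −0.21, TG 2 −0.68 and −0.74) and Col26a1 (voom 0.013, NTG 1 0.27 and 0.27, TG 3 0.037 and 0.034). Each of the 6 chain ratios tested kept its sign, as added after the data were seen, without each library (lengths cancel, so RPKM gave the identical difference), with log2 differences of 0.024 to 0.093 (Col1a1 to Col1a2), −0.37 to −0.17 (Col3a1 to Col1a1), 0.052 to 0.083 (Col4a1 to Col4a2), 0.75 to 1.04 (Col5a1 to Col5a2), −0.22 to −0.10 (Col6a1 to Col6a2) and −0.58 to −0.24 (Col8a1 to Col1a1). With 3 libraries a group, chains of fewer than about 10 counts per library could not be compared closely.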
